A study of Mus musculus with 50 samples.

Results

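Lysyl oxidases and the procollagen C-proteinase with its enhancer were followed in mouse hearts through 6 genes, Lox, Loxl1, Loxl2, Loxl3, Bmp1 and Pcolce. They were chosen by name, each matched 1 row, and they are 6 of the 35717 genes in the expression table. RNA of the left ventricle was sequenced in 50 C57BL/6J mice aged 40 weeks, and each library was taken as a separate mouse, so p-values measure the spread between libraries. Some mice bore a transgene for cardiomyocyte LARP6 (Tg) and the others were littermates without it (wild type, WT). A pump delivered angiotensin II (Ang II, a hormone that constricts blood vessels) at 1000 ng/kg/min or sterile saline for 21 days. There were 11 WT saline hearts (5 female, 6 male), 14 WT Ang II hearts (7 of each sex), 12 Tg saline hearts (6 of each sex) and 13 Tg Ang II hearts (7 female, 6 male). The promoter of the transgene and the number of founder lines are not given in the sources used here. The LARP6 protein recognises a stem-loop in mRNAs of fibrillar collagens, and the study asked how its excess in cardiomyocytes bears on heart function and fibrosis under Ang II.

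Fibrillar collagen is secreted as procollagen, which can only join a fibre once its end pieces are cut off. BMP1 is the protease that removes the piece at the C-terminal end, and PCOLCE binds that piece and speeds the cut. Lysyl oxidases then oxidise lysines of collagen and elastin, which lets neighbouring chains form covalent cross-links that make the fibre stiff and hard to degrade. In the heart these proteins come mainly from fibroblasts and myofibroblasts, and BMP1 can also cleave the propeptide of LOX itself.

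Of the 6 genes, 1 (Pcolce) had an entry in RefSeq's table of mouse promoters on GRCm38.p6. Its upstream stretch is shown beside that of Col3a1, the gene of type III procollagen, because both were higher in the same comparisons below. Both are printed 5′ to 3′ on the strand of the gene and hold no exon of GENCODE M21. The Pcolce stretch is chr5:137611488-137611654 on the minus strand and lies inside the span of longer Pcolce transcripts, and the Col3a1 stretch is chr1:45311288-45311537 on the plus strand. The Pcolce stretch was ended at the first exon base and stops short of the start site, at 137611404. The bases between were neither printed nor searched, while the Col3a1 stretch reaches its start site. Capitals mark a match on either strand to the TATA box motif TATAAA, to the box motif CCAAT or to the GC box motif GGGCGG. These motifs do not overlap each other.
Pcolce: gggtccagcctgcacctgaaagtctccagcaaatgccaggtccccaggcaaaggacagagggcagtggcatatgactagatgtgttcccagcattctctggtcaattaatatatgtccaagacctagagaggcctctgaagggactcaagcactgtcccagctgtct
Col3a1: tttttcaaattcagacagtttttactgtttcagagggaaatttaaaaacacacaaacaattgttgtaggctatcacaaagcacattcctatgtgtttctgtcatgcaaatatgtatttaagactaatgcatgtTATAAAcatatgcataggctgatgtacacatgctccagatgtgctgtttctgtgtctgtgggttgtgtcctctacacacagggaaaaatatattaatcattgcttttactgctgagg
The Pcolce stretch of 167 bases was 52.7% G or C and held no match, which leaves the unsearched bases next to the start site unknown. In the same window, 7.96% of 32851 mouse promoters held TATAAA, 22.54% CCAAT and 19.02% GGGCGG on either strand. The 250 bases before Col3a1 were 35.2% G or C and held TATAAA 117 bases before the start site, a motif that 12.37% of promoters held in that window. A match or its absence describes these letters only.

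Total counts ran from 53877439 to 91579342 per library. Each difference is a log2 fold change ± its standard error (SE), by edgeR's quasi-likelihood test over 11628 genes, and a gene was called at a Benjamini-Hochberg adjusted p under 0.05. Levels are the authors' FPKM (fragments mapped to a gene, scaled by its transcript length and by library size) divided by a factor per library (scaled FPKM), given as mean ± SD. Larp6, the check of the labels, stood between 444 and 1631 scaled FPKM in the 25 libraries labelled Tg and between 5.61 and 63.7 in the libraries labelled WT, except for 1 at 1004. That library, number 329, is labelled WT Ang II, male (replicate 8 here) and has Tg letters in its column name. Library 847, labelled Tg Ang II, male (replicate 12 here), with Larp6 at 1120, has WT letters. Larp6 of both lies in the Tg range, against the label of the first and with the label of the second. Both libraries were kept under their labels, so the WT Ang II group holds 1 heart with Larp6 at the Tg level. The tests of the 6 genes, of the lists and of the ratios, and the correlations, were also run without them. The labels give library numbers but no replicate numbers. Replicates named here count the hearts of each group in order of library number. Cardiomyocyte markers, with Actc1 and Myh6 the highest (medians 5470 and 3002), summed to between 11820 and 16925 scaled FPKM per library. Those of atrial cardiomyocytes summed to between 0.138 and 1.17.

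The coordinates of the 6 genes are those of the deposited table, on mouse assembly GRCm38. Lox lies on chromosome 18 from 52516067 to 52529867 on the minus strand, and Loxl1 on chromosome 9 from 58287738 to 58313186 on the minus strand. Loxl2 lies on chromosome 14 from 69609068 to 69695834 on the plus strand, and Bmp1 on the same chromosome from 70474558 to 70520188 on the minus strand. Loxl3 lies on chromosome 6 from 83034173 to 83052562 on the plus strand, and Pcolce on chromosome 5 from 137605103 to 137613784 on the minus strand. Exons of Loxl3 overlap those of Htra2 on the opposite strand, a gene with a mean of 4.74 FPKM, and the strand setting of the counting is not given in the sources used here, so some Loxl3 counts may be shared with it. Pcolce shares exons with Fbxo24 (mean 0.125 FPKM) and Loxl2 with the antisense gene Gm27177 (mean 0.178 FPKM), both at low levels.

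Loxl1 and Pcolce were the most abundant of the 6 mRNAs per length, Bmp1 followed, and Loxl2, Loxl3 and Lox were low. With the transgene under saline, 5 of the 6 rose and Bmp1 did not pass the test. Ang II raised 4 of the 6 in WT hearts and 2 of the 6 in Tg hearts. Bmp1 passed in no comparison between groups with the median-of-ratios scaling used throughout. Under saline, 40.5% of all genes tested were called between Tg and WT and 20.4% were called higher in Tg, so 5 of 6 higher stands beside a broad change in these hearts. The median log2 difference over the 6 was 0.70, against 0.00 over all genes tested. For Ang II in WT hearts, 18.5% of genes were called and 9.66% were called higher, and the median over the 6 was 0.46. In Tg hearts, 8.84% were called with Ang II and 4.85% were called higher, and the median over the 6 was 0.16. Between Tg and WT under Ang II, 3 of the 6 (Loxl1, Loxl2 and Pcolce) were higher, where 32.7% of genes were called and 16.3% were called higher. These comparisons share groups of hearts with each other, so their counts are not independent.

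The scaling set how the calls over all genes divided. Higher calls in Tg under saline numbered 2369 of 4706 here and 4854 of 5770 when libraries were scaled by their size alone, which moved the median of all genes to 0.14. In the same order, they numbered 1123 of 2146 and 1971 of 2444 for Ang II in WT hearts, 564 of 1028 and 438 of 746 for Ang II in Tg hearts, 1901 of 3808 and 3365 of 4287 for Tg against WT under Ang II, and 293 of 507 and 109 of 1212 for males against females. By limma-trend on deposited FPKM, without further scaling, 3984 of 4995 calls were higher in Tg under saline, 1791 of 2181 with Ang II in WT hearts, 665 of 850 with Ang II in Tg hearts, 3218 of 4097 in Tg under Ang II and 90 of 1299 in males. Lox, Loxl1, Loxl2, Loxl3 and Pcolce kept a positive value in the 4 comparisons under each of these scalings.

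**Figure D1:**
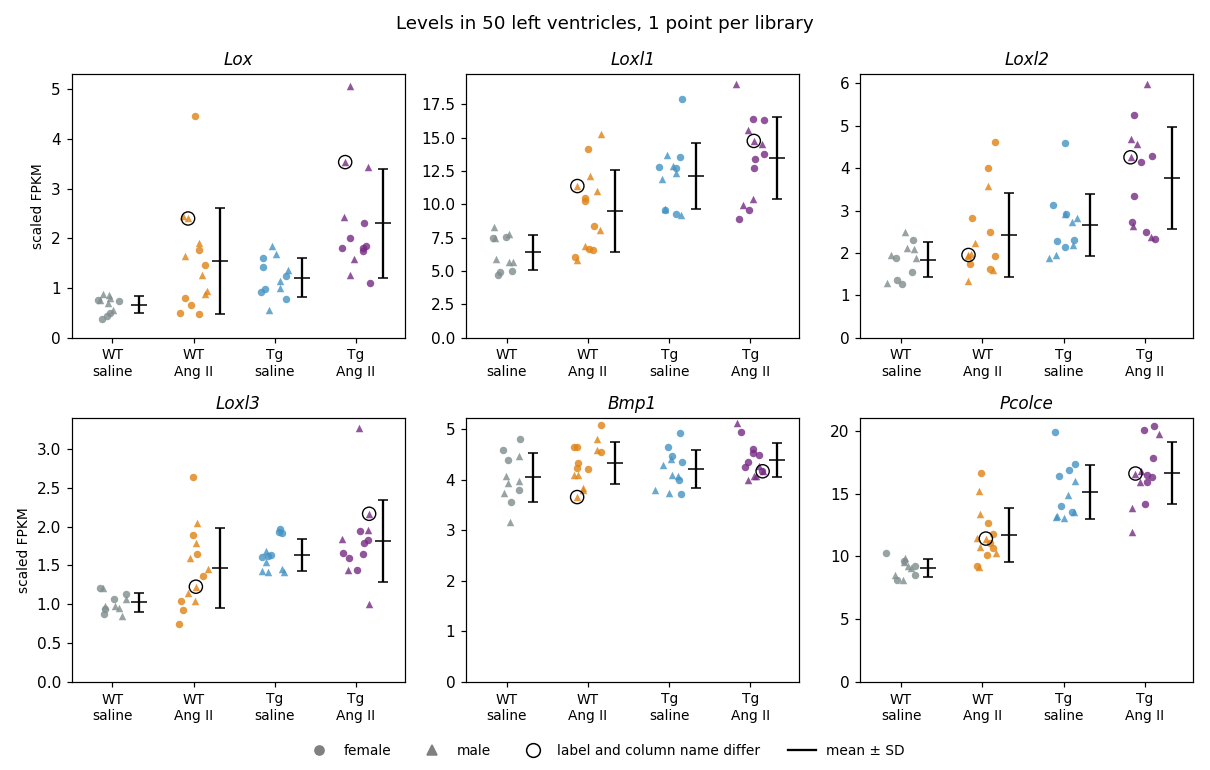
Level of each gene (scaled FPKM, vertical axis from 0) in each of the 50 libraries by group, with circles for females, triangles for males, rings for the 2 libraries whose label and column name differ, and bars for mean ± SD. Loxl1, Loxl3 and Pcolce in Tg saline hearts lie wholly above WT saline hearts, while the 4 groups of Bmp1 overlap throughout. How many of all genes tested separate in this way was not counted.

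Lox encodes the founding member of the family, made as a proenzyme. In WT saline hearts its level ran from 0.368 to 0.873 scaled FPKM with a median of 0.730 (mean 0.667 ± 0.172, n = 11). In WT Ang II hearts it ran from 0.468 to 4.47 with a median of 1.36 (1.54 ± 1.07, n = 14). The Tg saline hearts lay between 0.554 and 1.85 with a median of 1.19 (1.21 ± 0.386, n = 12), and the Tg Ang II hearts between 1.10 and 5.07 with a median of 1.84 (2.30 ± 1.10, n = 13). WT saline hearts were low and close together, and 10 of the 14 WT Ang II hearts exceeded the highest of them, as did 10 of the 12 Tg saline hearts. The Ang II groups were spread widely and overlapped each other.

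Lox had the largest response to Ang II among the 6 genes in both genotypes. It rose by a log2 of 1.24 ± 0.27 in WT hearts (2.37-fold, adjusted p = 0.0011, edgeR), the 49th largest increase among 11628 genes, and by 0.91 ± 0.26 in Tg hearts (1.88-fold, adjusted p = 0.022), the 15th largest. Genes were tested if they reached 1 FPKM in 5 or more libraries. Lox did so in 29 libraries, none of them WT saline, so it entered the test through the groups where it is higher. With no filter on low values, the adjusted p for Ang II was 0.0033 in WT and 0.060 in Tg hearts (edgeR). With the transgene under saline it rose by 0.89 ± 0.28 (1.86-fold, adjusted p = 0.0091). Between Tg and WT under Ang II the difference was 0.56 ± 0.25 (adjusted p = 0.074), short of the threshold. It passed with library-size scaling (0.64, adjusted p = 0.044), with a block for runs of neighbouring library numbers (0.86, adjusted p = 0.011) and by limma-trend on either pseudocount (adjusted p = 0.010 and 0.0088). Leaving out a single heart also changed whether the response in Tg hearts and the difference between genotypes under Ang II passed. Without Tg Ang II replicate 9, which held the highest Lox, the response in Tg was 0.79 (adjusted p = 0.060). Without WT Ang II replicate 14, the highest WT heart at 4.47 scaled FPKM, the difference between genotypes under Ang II was 0.87 (adjusted p = 0.00099), and it also passed without Tg Ang II replicate 8 (0.64, adjusted p = 0.042) or replicate 4 (0.63).

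Loxl1 encodes the family member known for elastic fibre upkeep. Its level ran from 4.72 to 8.30 scaled FPKM in WT saline hearts, with a median of 5.87 (mean 6.39 ± 1.32). WT Ang II hearts ran from 5.86 to 15.3 with a median of 9.31 (9.50 ± 3.06). Tg saline hearts ran from 9.23 to 17.9 with a median of 12.5 (12.1 ± 2.50), and Tg Ang II hearts from 8.92 to 19.0 with a median of 13.8 (13.5 ± 3.07). Every Tg saline heart exceeded every WT saline heart, whereas the Tg groups under saline and Ang II covered nearly the same range. The share of all genes tested whose saline groups do not overlap was not counted, here or for Loxl3 and Pcolce below.

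The Loxl1 difference between Tg and WT under saline was 0.93 ± 0.15 (1.91-fold, adjusted p = 3.5e-06, edgeR), with Lox close to it at 0.89. Ang II raised it by 0.58 ± 0.15 in WT hearts (adjusted p = 0.0041). In Tg hearts the value with Ang II was 0.16 ± 0.14 (95% interval -0.12 to 0.44, adjusted p = 0.55). Under Ang II, Tg hearts were higher than WT hearts by 0.51 ± 0.14 (adjusted p = 0.0033).

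Loxl2 encodes an enzyme that cross-links type IV as well as fibrillar collagen. WT saline hearts held 1.28 to 2.49 scaled FPKM with a median of 1.88 (mean 1.83 ± 0.414), and WT Ang II hearts 1.35 to 4.62 with a median of 1.97 (2.42 ± 0.991). Tg saline hearts held 1.88 to 4.58 with a median of 2.52 (2.66 ± 0.736), and Tg Ang II hearts 2.33 to 5.98 with a median of 4.15 (3.78 ± 1.20). All neighbouring groups overlapped, and the WT Ang II median stayed near that of WT saline while a few hearts ran high.

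Loxl2 was higher in Tg than in WT hearts under saline by 0.54 ± 0.18 (1.46-fold, adjusted p = 0.015, edgeR) and under Ang II by 0.66 ± 0.16 (1.58-fold, adjusted p = 0.0016). With Ang II the value in WT hearts was 0.40 ± 0.18 (adjusted p = 0.10), which did not pass. In Tg hearts it rose by 0.52 ± 0.17 with an adjusted p of 0.049, at the edge of the threshold. That call was lost in 29 of the 50 fits that left out 1 library, with values from 0.45 to 0.54 and adjusted p up to 0.12, the highest without Tg Ang II replicate 9. It was also lost without the pair of libraries whose labels and column names differ (0.51, adjusted p = 0.070).

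Loxl3 is the sequence relative of Loxl2 and was the lower of the pair here. Its level was 0.848 to 1.21 scaled FPKM in WT saline hearts with a median of 0.982 (mean 1.02 ± 0.124), and 0.741 to 2.64 in WT Ang II hearts with a median of 1.41 (1.47 ± 0.513). It was 1.41 to 1.97 in Tg saline hearts with a median of 1.61 (1.63 ± 0.206), and 1.003 to 3.27 in Tg Ang II hearts with a median of 1.78 (1.82 ± 0.525). The saline groups were tight and did not overlap, while the Ang II groups widened in both directions.

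Under saline Loxl3 was higher in Tg by 0.66 ± 0.15 (1.58-fold, adjusted p = 0.00032, edgeR), and Ang II raised it in WT hearts by 0.52 ± 0.14 (adjusted p = 0.0079). The value with Ang II in Tg hearts was 0.16 ± 0.14 (adjusted p = 0.53), and that between genotypes under Ang II was 0.31 ± 0.13 (adjusted p = 0.071). The latter passed with library-size scaling (0.39, adjusted p = 0.034), with the block for runs of library numbers (0.45, adjusted p = 0.021) and by limma-trend (adjusted p = 0.025 and 0.024). It also passed in 5 of the 50 fits that left out 1 library. These were without WT Ang II replicate 14 (0.41, adjusted p = 0.0075), replicate 1 (0.36, 0.035) or replicate 2 (0.34, 0.047), and without Tg Ang II replicate 4 (0.37, 0.019) or replicate 8 (0.34, 0.048).

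Loxl4, the remaining member of the family, was below 0.627 scaled FPKM in every heart and was not tested. Summed over the 5 family members, lysyl oxidase mRNA was 10.025 ± 1.68 scaled FPKM in WT saline, 15.1 ± 5.28 in WT Ang II, 17.9 ± 3.48 in Tg saline and 21.7 ± 5.61 in Tg Ang II hearts. Loxl1 made up 63.4 ± 3.18% of that sum in WT saline, 63.6 ± 4.02% in WT Ang II, 67.7 ± 2.66% in Tg saline and 62.8 ± 3.89% in Tg Ang II hearts. The share of Lox was 6.79 ± 1.95% and 6.82 ± 2.13% in the WT and Tg saline groups, and 9.38 ± 3.35% and 10.3 ± 2.64% in the WT and Tg Ang II groups. The mean of the sum was higher with either condition, but the sum was not tested. Its range was 13.5 to 26.5 in Tg saline and 14.3 to 34.0 in Tg Ang II hearts, which overlap broadly. Loxl1 remained the major form in each group.

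Bmp1 encodes the procollagen C-proteinase, also known as bone morphogenetic protein 1. Its level was 3.16 to 4.80 scaled FPKM in WT saline hearts with a median of 3.96 (mean 4.04 ± 0.486), and 3.65 to 5.08 in WT Ang II hearts with a median of 4.28 (4.32 ± 0.411). It was 3.72 to 4.92 in Tg saline hearts with a median of 4.19 (4.21 ± 0.375), and 3.99 to 5.11 in Tg Ang II hearts with a median of 4.27 (4.39 ± 0.342). The 4 groups covered the same narrow range.

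The Bmp1 difference between Tg and WT was 0.05 ± 0.06 under saline (95% interval -0.06 to 0.16, adjusted p = 0.48, edgeR) and 0.02 ± 0.05 under Ang II (-0.08 to 0.12, adjusted p = 0.81). With Ang II it was 0.09 ± 0.05 in WT hearts (-0.01 to 0.20, adjusted p = 0.24) and 0.06 ± 0.05 in Tg hearts (-0.04 to 0.16, adjusted p = 0.55). The counts behind these values were 1841 to 4319 per library, for which counting alone gives a coefficient of variation of 1.87%. Each interval ends below a log2 of 0.20, which lies under the value of each of the other 5 genes in the comparison of Tg with WT under saline. With libraries scaled by size alone, Bmp1 in that comparison was 0.19 (adjusted p = 0.021, edgeR), where the median gene was at 0.14.

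Pcolce encodes the enhancer of that protease. WT saline hearts held 8.10 to 10.2 scaled FPKM with a median of 9.21 (mean 9.09 ± 0.713), and WT Ang II hearts 9.15 to 16.6 with a median of 11.2 (11.7 ± 2.15). Tg saline hearts held 13.1 to 19.9 with a median of 14.4 (15.2 ± 2.16), and Tg Ang II hearts 11.9 to 20.4 with a median of 16.5 (16.6 ± 2.48). No Tg saline heart reached down to the WT saline range, and 11 of the 14 WT Ang II hearts lay above it.

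Pcolce had the smallest adjusted p of the 6 genes in both comparisons of genotype. It was higher in Tg by 0.73 ± 0.08 under saline (1.66-fold, adjusted p = 2.6e-09, edgeR) and by 0.50 ± 0.08 under Ang II (1.42-fold, adjusted p = 1.8e-06). Ang II raised it by 0.36 ± 0.08 in WT hearts (1.29-fold, adjusted p = 0.0013), and the value in Tg hearts was 0.13 ± 0.08 (adjusted p = 0.33). The related enhancer gene Pcolce2 had lower levels, at 2.65 ± 0.337, 3.23 ± 0.591, 4.07 ± 0.553 and 4.53 ± 0.734 scaled FPKM in the WT saline and WT Ang II hearts and then the Tg hearts with saline and with Ang II. It was higher in Tg by 0.61 ± 0.08 under saline (adjusted p = 9.3e-08) and by 0.47 ± 0.08 under Ang II (adjusted p = 4.4e-06), and rose with Ang II in WT hearts by 0.28 ± 0.08 (adjusted p = 0.010).

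**Figure D2:**
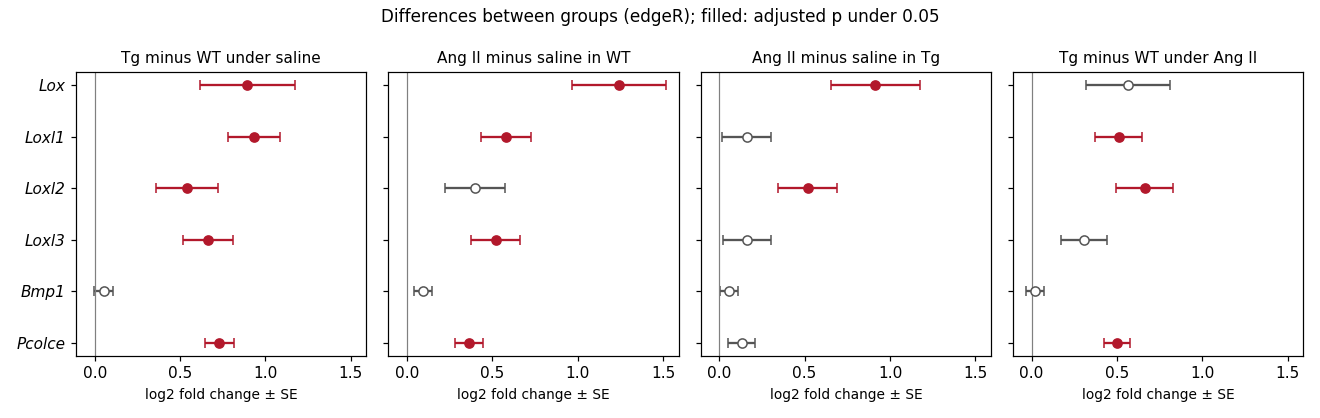
Log2 fold change ± SE (horizontal axis) of each gene in the 4 comparisons between groups, from edgeR, with filled points for adjusted p under 0.05. All filled points lie to the right of 0, and Bmp1 is at 0.09 or less in each panel.

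Ranked by mean level, Loxl1, Loxl2, Loxl3 and Pcolce had the order WT saline, WT Ang II, Tg saline, Tg Ang II, and Lox and Bmp1 the order WT saline, Tg saline, WT Ang II, Tg Ang II. Neighbours in that order differed by more than the larger of their SDs for Lox in the step from WT saline to Tg saline, for Loxl1 in the step from WT saline to WT Ang II, and for Pcolce in the steps from WT saline to WT Ang II and from there to Tg saline. No other pair of neighbours did, and none did for Loxl2, Loxl3 or Bmp1. Leaving out the libraries labelled WT Ang II replicate 8 and Tg Ang II replicate 12 ended 1 call of the 6 genes, that of Loxl2 with Ang II in Tg hearts. Without both, Ang II in WT hearts gave 1.18 for Lox, 0.57 for Loxl1, 0.54 for Loxl3 and 0.36 for Pcolce, all called, and Tg against WT under Ang II gave 0.52 for Loxl1, 0.65 for Loxl2 and 0.49 for Pcolce, all called.

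Whether the response to Ang II depended on the genotype was tested as an interaction. The response in Tg minus that in WT was -0.42 ± 0.20 for Loxl1 (p = 0.045, adjusted p = 0.50, edgeR), -0.36 ± 0.20 for Loxl3 (p = 0.079, adjusted p = 0.56), -0.33 ± 0.37 for Lox (adjusted p = 0.80) and -0.23 ± 0.11 for Pcolce (p = 0.048, adjusted p = 0.51). For Loxl2 it was 0.12 ± 0.24 (adjusted p = 0.90) and for Bmp1 -0.03 ± 0.07 (adjusted p = 0.91). By edgeR 0 of the 6 passed, with 2 at an unadjusted p under 0.05, and by DESeq2 and limma-trend 0 passed. Over all genes tested 0.0172% (2 genes) did. The calls in WT and not in Tg hearts for Loxl1, Loxl3 and Pcolce are therefore not shown to be a difference between the genotypes.

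Females and males were compared over the 4 groups, with 4.36% of genes called. By edgeR 0 of the 6 passed, with 1 at an unadjusted p under 0.05, DESeq2 called 0 and limma-trend called 1 (Bmp1, adjusted p = 0.025), as did library-size scaling (-0.16, adjusted p = 0.024). Male minus female, Bmp1 was at -0.10 ± 0.04 (p = 0.0076, adjusted p = 0.099, edgeR), and passed without Tg Ang II replicate 6, the male with the highest Bmp1 (-0.12, adjusted p = 0.041). Lox was at 0.36 ± 0.19 (adjusted p = 0.28), and passed without WT Ang II replicate 14, the female with the highest Lox (0.51, adjusted p = 0.043). Whether the difference with the transgene under saline, or with Ang II in WT or Tg hearts, was another in males than in females was tested too. By edgeR, DESeq2 and limma-trend 0 of the 6 passed in each of these 3 tests, with 0 at an unadjusted p under 0.05 in edgeR. The intervals were wide, for example -1.41 to 0.76 for Lox with the transgene.

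The other genes of the pathway were taken from lists. Among other genes of collagen cleavage and cross-linking, 7 of 14 could be tested. With the transgene under saline, 3 rose and 1 fell. Adamts2, the protease that removes the N-terminal piece of procollagen, rose by 0.96 ± 0.14 (adjusted p = 4.3e-07, edgeR). Tgm2, a transglutaminase that joins matrix proteins by another kind of bond, rose by 0.80 ± 0.10 (adjusted p = 4.1e-08), and Pcolce2 was the third. Fkbp10, a chaperone in collagen folding that aids lysine hydroxylation, fell by 0.52 on the log2 scale (SE 0.08, adjusted p = 1e-06). With Ang II in WT hearts 5 of the 7 rose, among them Adamts2 (0.60 ± 0.13) and the lysyl hydroxylase gene Plod2 (0.23 ± 0.07), and in Tg hearts 0 of the 7 were called by edgeR, DESeq2 or limma-trend, with 5 at an unadjusted p under 0.05. Under Ang II, 3 of the 7 were higher in Tg than in WT hearts. The median over the 7 was 0.06, 0.23, 0.16 and 0.10 in these 4 comparisons.

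Of 8 genes for the fibre proteins on which lysyl oxidases act, 6 rose with the transgene under saline, 5 with Ang II in WT hearts and 2 with Ang II in Tg hearts, and 6 were higher in Tg under Ang II. Col1a1, which encodes the main chain of type I collagen, rose by 0.88 ± 0.19, 0.94 ± 0.18 and 0.56 ± 0.18 in the first 3 of these and was higher by 0.51 ± 0.17 in the last (adjusted p = 0.00018, 0.00026, 0.036 and 0.017, edgeR). The call with Ang II in Tg hearts was lost without the pair of libraries whose labels and column names differ (0.55, adjusted p = 0.057), which left 1 of the 8 called there. Col3a1 rose by 0.92 ± 0.25 with the transgene under saline and by 0.90 ± 0.25 with Ang II in WT hearts (adjusted p = 0.0033 and 0.0079). The medians over the 8 genes were 0.67, 0.72, 0.52 and 0.51.

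Of 7 matrix proteins that bind lysyl oxidases or the C-proteinase, 4 rose with the transgene under saline, 3 with Ang II in WT hearts and 1 with Ang II in Tg hearts, and 3 were higher in Tg under Ang II. Postn, whose product periostin binds BMP1, rose by 1.72 ± 0.27, 1.83 ± 0.27, 1.22 ± 0.25 and 1.12 ± 0.24 in the same order of comparisons (adjusted p = 2e-06, 4.5e-06, 0.0015 and 0.0003, edgeR). Fmod, which encodes fibromodulin, a collagen-binding proteoglycan that brings LOX to collagen, rose by 2.27 ± 0.42 with Ang II in WT hearts (adjusted p = 0.00014). Its value under Ang II between genotypes was -0.78 ± 0.37 (adjusted p = 0.096), and it passed without the same pair of libraries (-0.95, adjusted p = 0.048).

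Other substrates of the C-proteinase were measured too. Of 7 listed, 4 could be tested, and Bgn (biglycan), Dcn (decorin) and Ogn (osteoglycin), small proteoglycans, rose with the transgene under saline, by 1.11 ± 0.14, 0.49 ± 0.10 and 0.35 ± 0.09 (adjusted p = 1.6e-08, 5.9e-05 and 0.0012, edgeR). With Ang II, Bgn rose in WT hearts by 0.70 ± 0.13 and Ogn fell in Tg hearts by 0.29 (SE 0.08, adjusted p = 0.021). Of 6 genes of TGF-beta signalling, a known inducer of matrix genes, 5 rose with the transgene under saline, 4 with Ang II in WT hearts and 0 with Ang II in Tg hearts, and 5 were higher in Tg under Ang II. DESeq2 and limma-trend also called 0 with Ang II in Tg hearts, where 3 had an unadjusted p under 0.05 in edgeR. Without the same pair, 3 were called with Ang II in WT hearts, since Tgfb2 did not pass (0.40, adjusted p = 0.052). Tgfb2, one of its ligands, was higher in Tg by 1.56 ± 0.18 under saline and by 1.37 ± 0.16 under Ang II, and Ccn2, a target gene that encodes connective tissue growth factor, by 2.16 ± 0.20 and 1.53 ± 0.18.

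Each gene was next set against Col1a1 within the same heart, a ratio that no scaling between libraries alters. The test was a two-sided permutation of labels within each sex, adjusted over 24 tests. Bmp1 per Col1a1 fell in all 4 comparisons. Bmp1 itself passed the test in none of them and Col1a1 rose in each. Any gene of unchanged level falls per Col1a1 in this way, and the share of all genes that did was not counted for any of the 4 comparisons. The ratio was 0.390 to 0.843 in WT saline hearts with a median of 0.529, 0.181 to 0.570 in WT Ang II hearts with a median of 0.323, 0.191 to 0.466 in Tg saline hearts with a median of 0.305, and 0.115 to 0.319 in Tg Ang II hearts with a median of 0.215. WT saline hearts were highest and Tg Ang II hearts lowest, and those groups did not overlap in this ratio. Col1a1 alone separated them, at 5.21 to 9.57 scaled FPKM in WT saline and 13.9 to 35.4 in Tg Ang II hearts. Bmp1 alone overlapped, at 3.16 to 4.80 and 3.99 to 5.11. The share of all genes that separate these groups per Col1a1 was not counted. The log2 difference was -0.82 for Tg against WT under saline (permutation adjusted p = 0.00024), -0.76 for Ang II in WT (0.0011), -0.49 for Ang II in Tg (0.0062) and -0.55 for Tg against WT under Ang II (0.0092).

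Lox per Col1a1 passed in no comparison, with differences of -0.02, 0.14, 0.35 and 0.18 in the same order and a smallest permutation adjusted p of 0.057, for Ang II in Tg hearts. That value passed when 1 of 8 libraries was left out, at 0.37 to 0.42. They were Tg saline replicates 2, 5, 6, 10 and 12 and Tg Ang II replicates 1, 7 and 8, with the largest value without Tg saline replicate 6 (adjusted p = 0.016). Its ratio averaged 0.0927 ± 0.0314 in WT saline, 0.10 ± 0.0322 in WT Ang II, 0.0893 ± 0.0295 in Tg saline and 0.110 ± 0.0265 in Tg Ang II hearts, with broad overlap.

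Loxl1 per Col1a1 was lower with Ang II in both genotypes, and its differences between genotypes did not pass. It averaged 0.853 ± 0.0749 in WT saline and 0.886 ± 0.108 in Tg saline hearts, and 0.690 ± 0.102 in WT Ang II and 0.675 ± 0.0779 in Tg Ang II hearts. The log2 differences with Ang II were -0.31 in WT and -0.40 in Tg hearts (permutation adjusted p = 0.0015 and 0.00024), while Tg against WT gave 0.05 under saline and -0.03 under Ang II (adjusted p = 0.48 and 0.73). Pcolce per Col1a1 differed by -0.51 and -0.42 with Ang II (adjusted p = 0.0071 and 0.00054) and -0.15 and -0.06 with the transgene (0.24 and 0.69). Loxl3 per Col1a1 fell with Ang II, at -0.40 and -0.43 (0.0092 and 0.0011), and was lower in Tg under Ang II at -0.23 (0.032). The last call was lost, at -0.18 to -0.22 and adjusted p of 0.053 to 0.069, without WT Ang II replicate 3, 7 or 13 or without Tg Ang II replicate 4 or 6. Loxl2 per Col1a1 fell with the transgene under saline (-0.34, 0.00054) and with Ang II in WT hearts (-0.51, 0.0016). Its values were -0.06 with Ang II in Tg hearts (0.55) and 0.11 for Tg against WT under Ang II (0.45). Without the pair of libraries whose labels and column names differ, each of the 24 ratio tests gave the same call. The tests of Tg against WT under saline hold neither library, so their values could not change.

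**Figure D3:**
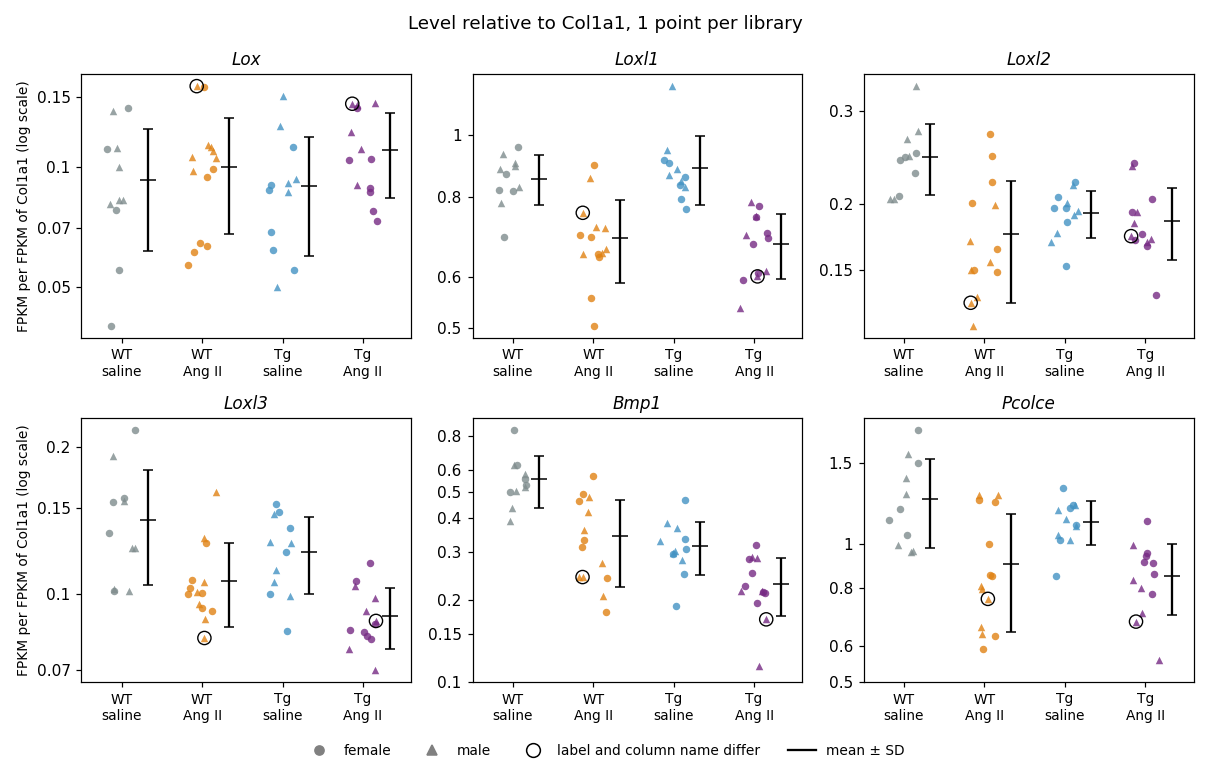
FPKM of each gene per FPKM of Col1a1 in the same library (vertical axis on a log scale) by group, with symbols as in the plot of levels. Bmp1 falls from 0.555 on average in WT saline to 0.230 in Tg Ang II hearts, and Loxl1 and Pcolce are lower in both Ang II groups.

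Hearts of the same group and sex also varied together. Each level was taken as log2(scaled FPKM + 1) minus the mean of its set, with 8 sets of genotype, treatment and sex, and the 21 pairs of the 6 genes and Col1a1 were correlated over 50 hearts with permutation within sets. Loxl1 followed Col1a1 most closely, with Pearson r = 0.93 and Spearman rho = 0.91 (permutation p = 1e-05 for each, the smallest these permutations can give; adjusted p = 1.6e-05 and 2.3e-05), and r was 0.92 without the 2 hearts farthest from the median. The next pairs were Loxl2 with Col1a1 (r = 0.85, rho = 0.84), Loxl1 with Loxl2 (0.83 and 0.81) and Pcolce with Col1a1 (0.82 and 0.77). Lox with Col1a1 had r = 0.79 and rho = 0.67, and r = 0.73 without its 2 farthest hearts. By Pearson r, Bmp1 had the weakest relations, from r = 0.29 with Loxl3 (permutation p = 0.039, adjusted p = 0.039) to 0.52 with Loxl2 (adjusted p = 0.00021). All 21 pairs passed after adjustment, and 20 passed without the pair of hearts whose labels and column names differ. The share of pairs that would pass among all genes was not counted, so these counts do not set the 6 genes apart. Ranked by r among the genes tested, Col1a1 was number 2 for Loxl1, whereas Bmp1 was number 1564 for Loxl3 and 1012 for Lox.

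**Figure D4:**
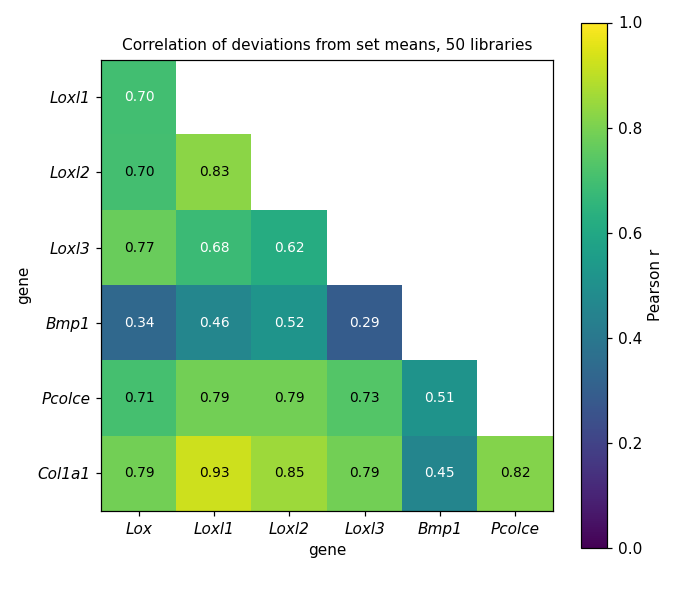
Pearson r (colour and printed value) between the deviations of 7 genes from the means of their sets over 50 libraries. The row of Bmp1 and its column are darkest, from 0.29 to 0.52, and Loxl1 with Col1a1 is brightest at 0.93.

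For each gene, the 3 genes with the most similar deviations among those tested were listed, as a description. Those of Lox were Mfap5 (r = 0.84), Col5a2 (0.81) and Cilp (0.81), and those of Loxl1 were Col3a1 (0.95), Col1a1 (0.93) and Fbn1 (0.92). Those of Loxl2 were Col5a1 (0.92), Vcan (0.89) and Fbn1 (0.89), and those of Loxl3 were Thbs4 (0.89), Serpinf1 (0.87) and Col16a1 (0.87). Those of Pcolce were Col5a2 (0.88), Fstl1 (0.85) and Postn (0.85), and those of Bmp1 were Ankrd27 (0.66), Ganab (0.62) and Kmt5c (0.61). Collagens or other matrix genes led the lists of 5 genes, and the list of Bmp1 held no collagen. A few hearts recurred at the top. WT Ang II replicate 14 was highest in its group for 5 of the 6 genes, Tg Ang II replicate 9 for 4 of the 6 and Tg saline replicate 4 for 4 of the 6, and each was also highest in its group for Col1a1.

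Markers of several cell types moved with the same groups. In bulk tissue, fewer cells of a type and less RNA per cell cannot be told apart. Of 7 markers of resident fibroblasts, 6 rose with the transgene under saline, whereas with Ang II 1 rose and 2 fell in WT hearts and 4 fell in Tg hearts (edgeR). Their sum was 293 to 372 scaled FPKM in WT saline, 217 to 355 in WT Ang II, 358 to 522 in Tg saline and 227 to 438 in Tg Ang II hearts. Per sum of these markers, Loxl1, Loxl3 and Pcolce were still higher with the transgene under saline, at log2 differences of 0.47, 0.21 and 0.27 (permutation adjusted p = 0.0012, 0.0016 and 0.0013), Lox and Loxl2 did not pass (0.40 and 0.07, adjusted p = 0.069 and 0.61), and Bmp1 was lower (-0.41, 0.00031). With Ang II all 6 genes were higher per sum of these markers in both genotypes. In WT hearts values ran from 0.30 for Bmp1 to 1.20 for Lox, and in Tg hearts from 0.52 to 1.36 for the same genes. The median sum was 319 in WT saline, 272 in WT Ang II, 459 in Tg saline and 328 in Tg Ang II hearts. Per such a sum, a gene of unchanged level falls with the transgene under saline and rises with Ang II, as Bmp1 did. Bmp1 itself was called in none of these comparisons. On their own levels, Loxl2 was not called with Ang II in WT hearts, nor Loxl1, Loxl3 and Pcolce in Tg hearts. The share of all genes higher per this sum was not counted.

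Myofibroblast markers (Postn among them, which is also in the list of binding proteins), of which 6 of 8 could be tested, rose with the transgene under saline (6 of 6) and with Ang II (5 of 6 in WT, 3 of 6 in Tg), and their sum was 29.7 to 73.3 scaled FPKM in WT saline, 36.1 to 107 in WT Ang II, 65.8 to 234 in Tg saline and 71.9 to 152 in Tg Ang II hearts. Of 7 macrophage markers all rose with the transgene under saline, and their sum was 89.0 to 114 in WT saline and 135 to 392 in Tg saline hearts. All 6 endothelial markers fell there, with sums of 107 to 160 in WT saline and 72.7 to 101 in Tg saline hearts, as did 4 of the 7 cardiomyocyte markers. Of 5 smooth muscle markers 3 could be tested and 2 fell there, and the median sum was 44.2 in WT saline, 37.6 in WT Ang II, 34.0 in Tg saline and 31.6 in Tg Ang II hearts. Under Ang II, 5 of the 7 macrophage, 5 of the 6 myofibroblast and 3 of the 7 resident fibroblast markers were higher in Tg than in WT hearts. All 6 endothelial markers, 5 of the 7 cardiomyocyte markers and 1 of the 3 smooth muscle markers were lower there, and 1 cardiomyocyte marker was higher. Summed markers of lymphocytes and adipocytes were at most 0.859 and 0.636 in any heart. Those of mesothelium were higher, with median sums of 1.73 in WT saline, 1.43 in WT Ang II, 0.971 in Tg saline and 0.802 in Tg Ang II hearts and a highest value of 3.24. Without the pair of libraries whose labels and column names differ, 1 resident fibroblast marker fell with Ang II in WT hearts and 2 myofibroblast markers rose with it in Tg hearts, and the other marker counts given here kept the same genes. The part of these shifts in the results of the 6 genes was not tested beyond the ratios given here.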

How the data were processed

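RNA of 50 left ventricles was selected for poly(A) and sequenced as paired ends from dUTP libraries, per the labels' protocols. The authors name cutadapt 1.9, FastQC, HISAT2 2.0.4 and StringTie 1.3.4d, per the submitters' processing notes. The counting tool, its strand setting and the genome build are not given in the sources used here, and 91.63% of the 35599 genes found in GENCODE M21 (GRCm38) had the same start and end. The deposited table holds, for each gene and library, a whole-number count and an FPKM value that the authors had divided by transcript length and library size.

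Groups came from the sample labels. The counts were tested as deposited with edgeR 4.0.16 in R 4.3.3 (quasi-likelihood, median-of-ratios scaling, 8 means of genotype, treatment and sex, sexes weighted equally) on the 11628 genes that reached 1 FPKM in 5 or more libraries. The pipeline was tested on simulated counts. Ratios to Col1a1 and correlations used 100000 permutations (20000 when a library was left out), with scipy. Alternatives were TMM and library-size scaling, no filter, a mean FPKM of at least 5, DESeq2 1.42.0, limma-trend (limma 3.58.1, FPKM not rescaled) on log2(FPKM + 1) and log2(FPKM + 0.1), no sex term, a block for runs of library numbers, each sex alone, other denominators and each library left out. Leaving out both libraries with differing labels was chosen after seeing the data. The 6 genes, the lists and the tests were chosen with earlier results of these data known. Named from lists were up to 4 genes with the smallest p per comparison. Counting error at the mean count was a coefficient of variation of 1.61% (Pcolce) to 4.34% (Loxl3), and covers counting only.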

Additional observations from a re-analysis of the deposited data

Results flagged for a closer look

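Among 48 sets, each of 1 gene in the hearts of 1 group and sex, 3 held a heart set apart from the others by a gap that is large against the range of its set. Such gaps arise by chance in about 1 set in 20. Among WT Ang II females, replicate 14 had 4.466 scaled FPKM of Lox, where the next was 1.767. Among WT Ang II males, replicate 1 had 3.581 of Loxl2, where the next was 2.233. Among Tg Ang II males, replicate 6 had 5.114 of Bmp1, where the next was 4.275.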

How the results depend on the processing

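Of 462 values recomputed under other settings 400 kept their direction and call, and of 3000 with 1 library left out 2936 did. Part of that was fixed in advance, because a ratio test uses only the libraries of the groups compared. Leaving out any other library could not move its value. Values called in neither fit count as kept if their direction held. Of the 6 genes, 5 called with the transgene under saline became 2 with a mean FPKM of at least 5 (4 of the 6 genes are then not tested) and 3 in males. The 4 called with Ang II in WT became 2 with that filter, 0 in females and 2 in males. The 2 called with Ang II in Tg became 1 with library-size scaling, either form of limma-trend, no sex term, the block for runs of library numbers, males only or without the pair with differing labels, and 0 with no filter, the higher filter or females only (0 to 2 with 1 library left out). The 3 called between genotypes under Ang II became 5 with library-size scaling, both limma-trend fits and the block, and 1 in females (3 to 5 with 1 left out). By sex, 0 became 1 with library-size scaling and both limma-trend fits (0 to 1 with 1 left out).

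All genes called with the transgene under saline numbered 2230 with the higher filter, 3079 in females and 2146 in males. With Ang II in WT they numbered 1143, 657 and 581. With Ang II in Tg they numbered 628 with no filter, 584 with the block, 5 in females and 499 in males (648 to 1112 with 1 left out). Between genotypes under Ang II they numbered 1915 with the higher filter, 2171 in females and 2006 in males. For the interaction they numbered 5 with TMM or library-size scaling, 10 with the higher filter, 40 with DESeq2, 1 with no filter, limma-trend on log2(FPKM + 1), females or males, and 0 without the sex term or with the block (2 to 18 with 1 left out). By sex they numbered 1212 with library-size scaling, 277 with the higher filter, 1299 and 1279 with limma-trend, and 321 with the block.

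Values near 0 changed sign. Loxl3 with Ang II in Tg was -0.063 in females, Bmp1 between genotypes under Ang II was -0.016 in females (-0.0092 to 0.039 with 1 left out), the interaction of Lox was 0.029 with limma-trend on log2(FPKM + 1) and 0.076 in males, and that of Loxl2 was -0.43 in females. By sex, Loxl3 was 0.014 with the block (-0.081 to 0.023 with 1 left out). Lox per Col1a1 with the transgene under saline ran from -0.14 to 0.085 with 1 left out, and Loxl1 per Col1a1 between genotypes under Ang II from -0.060 to 0.0091.

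Ratios to the sum of resident fibroblast markers, another quantity, had the other sign than ratios to Col1a1 for the genes named in each comparison here and the same sign for the rest. With the transgene under saline 4 were called, Loxl1, Loxl3, Bmp1 and Pcolce. Values of the other sign there were 0.40 for Lox and 0.074 for Loxl2, neither called, 0.21 for Loxl3 and 0.27 for Pcolce. With Ang II in WT they were 0.75 for Loxl1, 0.55 for Loxl2, 0.66 for Loxl3, 0.30 for Bmp1 and 0.55 for Pcolce, and in Tg 0.61, 0.95, 0.58, 0.52 and 0.59. Between genotypes under Ang II 1 was called, Pcolce (ratios to Col1a1: 2, and 1 to 2 with 1 left out). Values of the other sign there were 0.34 for Loxl1, 0.14 for Loxl3 and 0.30 for Pcolce. The cause of these changes was not tested, apart from genes or hearts removed by construction. No paired analysis was possible because the labels give no replicate numbers that groups share.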
